A study of Homo sapiens with 2 samples.

Results

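The genes described here are the H/ACA small nucleolar RNA (snoRNA) genes, taken as all genes of GENCODE version 44 of the type snoRNA whose symbol is SNORA followed by a number and at most 1 letter. Of the 60554 genes in the count files, 210 met this rule. They carry 148 different symbols, and 11 symbols were used by more than 1 gene, which together covered 73 of the 210 genes. The annotated genes were short, with a median length of 133 bases (range 68 to 701). A protein-coding or long non-coding RNA (lncRNA) gene of the same strand, called the host below, contained 150 of them, and 60 lay outside any such gene.

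H/ACA snoRNAs fold into a pair of hairpins that are joined by a single-stranded hinge with a motif called box H and followed by a tail with the motif ACA. Together with the pseudouridine synthase dyskerin and its partner proteins they guide the conversion of uridine to pseudouridine in ribosomal RNA. In human cells most of them have no promoter of their own: they are cut out of the introns of host genes after splicing. The libraries were made from RNA bound to chromatin, a fraction rich in transcripts still being made.

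Chromatin-bound RNA was extracted from SH-SY5Y, a human neuroblastoma cell line, with no genetic modification and no treatment given in the labels. The study has 1 condition with 2 replicates. No source used here says whether these were grown as separate cultures, so the spread between them may be technical. The values are counts of read pairs per gene on the strand of the gene (sense), summing to 4155210 in replicate 1 and 3425309 in replicate 2, and on the opposite strand (antisense). A level is given as the raw counts or as counts per 1000000 sense counts in genes (CPM).

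Of 12 sympathetic neuroblast markers, all had a mean sense count of at least 10 (range 71.5 to 3188.5, highest for HAND2). The Schwann cell, endothelial and leukocyte lists of 4 genes each had none above 1. All 4 fibroblast markers had counts, from 24 for COL1A1 to 1063 for COL3A1, and their part in the results was not tested. The proteins of the H/ACA particle were all measured. DKC1, which encodes dyskerin, had 390 and 334 sense counts in replicates 1 and 2, NHP2 had 199 and 132, GAR1 had 36 and 35, and NOP10 had 33 and 25. The assembly factors NAF1, SHQ1, RUVBL1 and RUVBL2 had mean counts between 176.5 and 369, and PARN and TENT4B, which act on the 3′ ends of small RNAs, had 138 and 172. All 10 of these genes thus passed a mean count of 10.

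H/ACA snoRNA genes took a small share of the sense counts, which was spread very unevenly over them. They held 3635 of the sense counts of replicate 1 (0.0875%) and 3964 of those of replicate 2 (0.116%). Of the 210 genes, 40 (19.0%) had a mean sense count of 10 or more, against 24.7% of all genes in the files. Any count was found for 85 of them, and 125 had none in either library. A count of 0 in both libraries allows at most 0.396 CPM of assigned pairs (3 counts over both libraries, counting error only). It sets no limit on the RNA itself, since pairs may not be assignable and a loss of short RNA before sequencing was not measured. Of the 125, 55 lay in a host under a same-strand exon.

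The following annotated sequences are shown because the SNORA73 genes share a host and most of their sequence, and the SNORA5 genes share a host, yet their counts were very unequal. SNORA53 is added as the gene with the second highest count. Capitals mark a box H motif (ANANNA) near the middle and ACA at its place 3 bases before the 3′ end, in the DNA letters of hg38 from 5′ to 3′.
SNORA73B, chr1:28508559-28508762, plus strand: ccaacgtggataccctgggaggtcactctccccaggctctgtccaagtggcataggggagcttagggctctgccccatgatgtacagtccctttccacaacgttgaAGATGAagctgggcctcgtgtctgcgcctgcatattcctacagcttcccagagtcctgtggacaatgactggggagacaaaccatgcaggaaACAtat
SNORA73A, chr1:28507366-28507571, plus strand: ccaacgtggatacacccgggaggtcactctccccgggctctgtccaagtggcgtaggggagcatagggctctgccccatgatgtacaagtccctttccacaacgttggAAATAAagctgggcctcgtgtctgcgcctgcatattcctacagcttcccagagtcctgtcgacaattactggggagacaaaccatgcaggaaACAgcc
SNORA5C, chr7:45104906-45105042, minus strand: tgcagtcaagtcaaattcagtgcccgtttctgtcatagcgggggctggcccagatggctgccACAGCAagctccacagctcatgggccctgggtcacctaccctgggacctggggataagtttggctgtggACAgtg
SNORA5A, chr7:45104349-45104482, minus strand: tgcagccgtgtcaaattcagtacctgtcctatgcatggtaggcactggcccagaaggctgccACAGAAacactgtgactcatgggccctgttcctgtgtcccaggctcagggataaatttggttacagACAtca
SNORA5B, chr7:45105968-45106099, minus strand: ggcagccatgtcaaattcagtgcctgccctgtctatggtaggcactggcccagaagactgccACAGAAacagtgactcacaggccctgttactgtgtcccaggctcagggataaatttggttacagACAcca
SNORA53, chr12:98599635-98599883, plus strand: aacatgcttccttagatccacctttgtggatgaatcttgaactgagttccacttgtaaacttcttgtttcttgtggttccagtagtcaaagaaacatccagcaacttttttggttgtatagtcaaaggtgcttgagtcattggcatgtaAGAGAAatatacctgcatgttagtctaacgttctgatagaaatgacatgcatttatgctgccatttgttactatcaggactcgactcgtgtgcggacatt
SNORA53 has no ACA at that place in the annotated gene.

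SNORA73B is a gene of the U17 RNA, whose yeast counterpart snR30 is needed for the processing of 18S ribosomal RNA. It had 1640 sense counts in replicate 1 and 2003 in replicate 2, or 490 ± 134 CPM (SD, n = 2). This single gene held 45.1% (95% exact Clopper-Pearson interval 43.5 to 46.8) of all H/ACA snoRNA counts in replicate 1 and 50.5% (49.0 to 52.1) in replicate 2. It lies in an intron of the lncRNA gene SNHG3, 67 bases before the next exon, and the longer gene RCC1 spans it as well. SNHG3 itself had 1141 and 861 sense counts, fewer than the snoRNA gene inside it. SNORA73A lies in the same host and is 93.2% identical to SNORA73B (192 of 206 aligned positions), but had no count in either library. An exon of a SNHG3 transcript with a retained intron lies over the whole of SNORA73A, and no annotated exon lies over SNORA73B.

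SNORA53 came second with 318 and 468 sense counts (107 ± 42.5 CPM, SD, n = 2). Its host is SLC25A3, the gene of the mitochondrial phosphate carrier, which had 631 and 514. SNORA53 ends 71 bases before the next exon, and a retained-intron exon of the host overlaps part of it. SNORA23 in IPO7, which encodes a nuclear import receptor, had 155 and 182 counts (45.2 ± 11.2 CPM) and ends 76 bases before the next exon. SNORA12 in CWF19L1 had 150 and 156 (40.8 ± 6.68 CPM), close to the 168 and 154 of its host.

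TBRG4, the gene of a regulator of mitochondrial RNA with 1479 and 1148 sense counts of its own, holds 3 H/ACA snoRNA genes with very different levels. SNORA5C had 220 and 122 counts (44.3 ± 12.3 CPM) and SNORA5A had 149 and 73 (28.6 ± 10.3 CPM), while SNORA5B had 0 in both libraries. By sequence SNORA5A is closer to SNORA5B (89.6% of aligned positions identical) than to SNORA5C (68.3%). As with the SNORA73 pair, the gene without counts was the one lying whole under a retained-intron exon of its host, and neither of the other SNORA5 genes lies under an exon. All 3 sequences, like those of SNORA73A and SNORA73B, were unique in hg38 over every 75-base window, 75 bases being the sequenced read length. Reads were trimmed before mapping, and shorter windows were not searched.

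The 6 genes above 100 mean counts (SNORA73B, SNORA53, SNORA5C, SNORA23, SNORA12 and SNORA5A) together held 72.4% of the H/ACA snoRNA counts in replicate 1 and 75.8% in replicate 2. Below them SNORA74B in ATP6V0E1, which encodes a subunit of the vacuolar proton pump, had 69 and 87 counts (21.0 ± 6.22 CPM), above the 59 and 39 of its host. SNORA28 in the translation initiation factor gene EIF5 had 75 and 65 (18.5 ± 0.655 CPM). SNORA22 in the lncRNA gene ENSG00000291124 had 34 and 63 (13.3 ± 7.22 CPM), and SNORA14B in TOMM20, the gene of a mitochondrial import receptor, had 38 and 45. The SNORA72 gene in NUCKS1 had 38 and 30 counts and SNORA80E in KHDC4 had 36 and 32. SNORA73B and SNORA74B were the 2 genes with a mean count above that of their host.

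**Figure D1:**
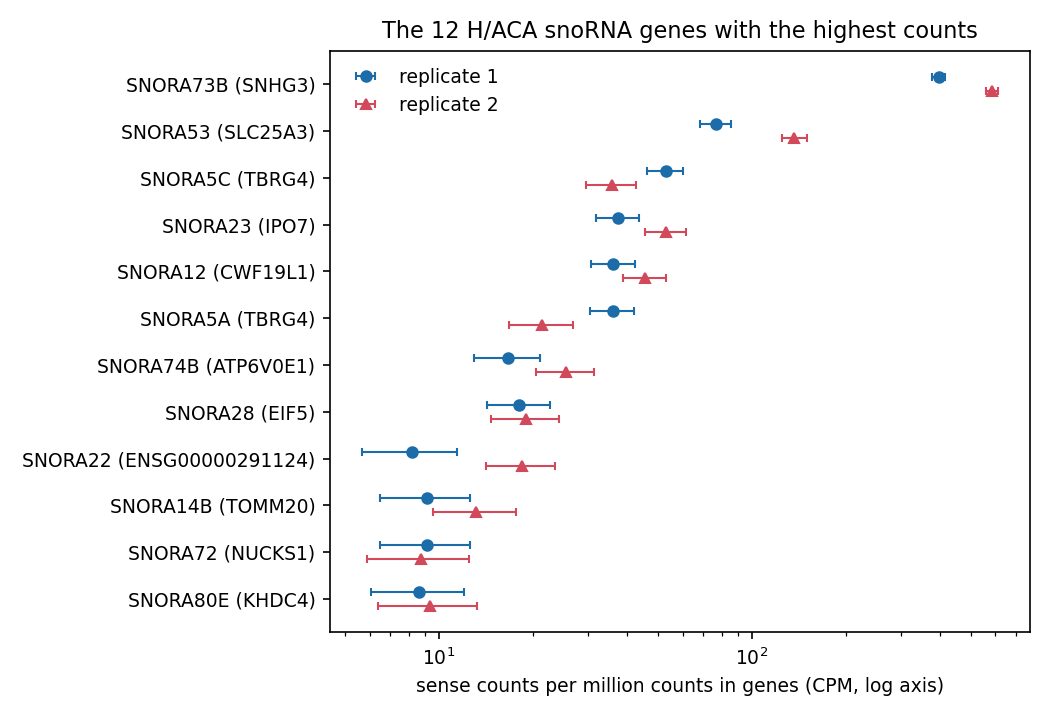
Sense level in CPM (log axis) of the 12 H/ACA snoRNA genes with the highest mean count, with the host gene in brackets. Circles are replicate 1, triangles replicate 2, and bars are exact Poisson 95% intervals, which cover counting error only. SNORA73B stands above all others in both libraries, and the intervals of the 2 libraries do not overlap for SNORA73B, SNORA53, SNORA5C, SNORA23, SNORA5A and SNORA22.

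With all transcripts of GENCODE 44, the position of a gene relative to annotated exons went with its count. Inside a host, 77 genes lay under no exon of any other gene of the same strand. Of these, 31 (40.3%) reached a mean count of 10, 63 had a count, and the median mean count was 6.5. The other 73 hosted genes were overlapped by a same-strand exon of the host or of another gene. Among them 8 (11.0%) reached 10, 18 had a count, and the median was 0. Outside a host, SNORA11F on chromosome 10, with 14 and 10 counts, was the 1 of 60 genes (1.67%) to reach 10, and 56 had no sense count. The split rests on which transcripts are used: with host exons of the smaller GENCODE basic set, 35 of 132 hosted genes under no exon and 4 of 18 under an exon reached 10, which are similar shares. No test was made between these classes, since genes that share a host are not independent and all share the same 2 libraries.

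**Figure D2:**
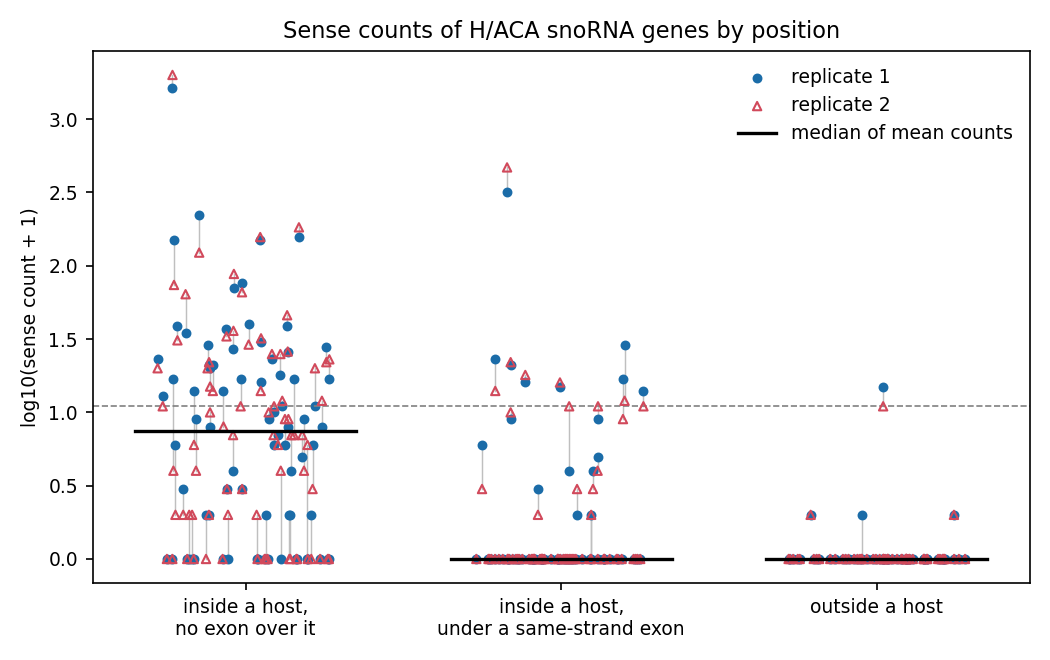
Sense counts of H/ACA snoRNA genes as log10(count + 1), in 3 classes of position. Circles are replicate 1, triangles replicate 2, lines connect both libraries, black bars are medians of the mean counts and the dashed line marks a count of 10. Most genes without an exon over them lie above 0, and most genes of the other classes lie at 0. Of the 210 genes, 208 are drawn.

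The counting rule bears on this split. STAR gives a read pair that lies on exons of more than 1 gene to no gene. Such pairs made up 2.09% and 1.79% of the 22446529 and 19566145 uniquely mapped pairs in replicates 1 and 2. Most uniquely mapped pairs were on no sense exon at all. The pairs on exons of several genes numbered 469308 and 350420, beside 4155210 and 3425309 sense pairs counted in genes. A host exon lay over 65 genes, in 42 cases one of a retained-intron transcript and in 30 cases of such transcripts alone. Where it covered the whole snoRNA gene (59 genes), 50 had no count and the highest mean was 20.5. Where it covered only a part (6 genes), 2 had no count and the highest mean was 393, that of SNORA53. Whether the uncounted genes lost their pairs to this rule was not tested. Under this rule and the exons of GENCODE 44, a wholly covered gene would get no pair, yet 9 of these 59 had a count. If this rule was applied, the annotation used for counting thus held other exons than GENCODE 44 at these genes. No source used here gives the version of that annotation, and it may differ at other genes too. In the other direction, a pair from an unspliced host transcript that touches a snoRNA gene is counted for it, so the mature snoRNA and its intron cannot be told apart in these counts.

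Hosts with several H/ACA snoRNA genes followed the same split. TAF1D, which encodes a subunit of an RNA polymerase I factor, had 1786 and 1882 counts and holds SNORA1, SNORA8, SNORA18, SNORA25, SNORA32 and SNORA40. All 6 lay under host exons and had no count. The same was true of SNORA4, SNORA63, SNORA63B and SNORA81 in EIF4A2, the gene of a helicase of translation initiation and the highest of the hosts (3459 and 2895 counts). It was also true of SNORA44, SNORA61 and both SNORA16A genes in SNHG12, and of SNORA17A and both SNORA17B genes in SNHG7. DKC1 is itself a host, and its SNORA36A and SNORA56 lay under exons and had no count.

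SNHG17 was an exception. Its SNORA71B, under no exon, had 29 and 31 counts, but SNORA71C (20 and 21), SNORA71A (15 and 17) and SNORA71D (14 and 15) had counts too although each lies under an lncRNA exon of the host. The fifth gene, SNORA71, had 0 in both. SNHG17 had 214 and 242 counts. In CNOT1, which encodes the scaffold of a deadenylase complex, SNORA46 under no exon had 28 and 19 counts. The 2 SNORA50A genes there overlap each other and had 1 and 2 counts in one case and 0 in the other. In KANSL2, SNORA2B had 15 and 13 and SNORA2A had 8 and 9, both under no exon, and SNORA2C, which MIR1291 overlaps, had 1 and 0. Other hosts with high counts were USP34 (mean 2976), URB1 (2184.5) and KHDC4 (1664.5).

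Of the 8 genes past 10 that lay under a same-strand exon, the remaining ones after SNORA53 and the SNHG17 genes were 4. SNORA13 in the lncRNA gene EPB41L4A-AS1 had 28 and 11 counts in replicates 1 and 2, and SNORA75 in NCL, the gene of the nucleolar protein nucleolin, had 22 and 13. SNORA60 in SNHG11 had 16 and 8, and SNORA55 in PABPC4, which encodes a poly(A)-binding protein, had 13 and 10. All 4 were higher in raw counts in replicate 1, which also had the larger total, and none of them passed the test between the libraries. Under no exon, the lowest genes past 10 included a SNORA73 gene in RNGTT (13 and 7), SNORA80D in AIMP2 (10 and 11), SNORA11 in MAGED2 (12 and 10) and SNORA9B in DDX55 (16 and 6). Just short of 10 stood SNORA15 in CCT6A (16 and 3) and SNORA79B in CCNB1IP1 (9 and 10). The counts of SNORA15 lay on both sides of 10, and its sequence was only partly unique in the genome. Another SNORA73 gene, in MIB1, had 17 and 24 counts. Neither it nor the one in RNGTT came near SNORA73B, and the 6 genes of the SNORA73 family thus ranged from 0 to 1821.5 mean counts.

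The split by exons was seen in 3 of the 4 classes of host. Ribosomal protein genes hold 18 H/ACA snoRNA genes. The 13 under an exon reached 2.5 mean counts at most, whereas 4 of the 5 under no exon passed 10. These were SNORA66 in RPL5 (39 and 28), SNORA72 in RPL30 (26 and 35), SNORA65 in RPL12 (22 and 24) and SNORA33 in RPS12 (16 and 22). The other one, SNORA3B in RPL27A, had no count. Small nucleolar RNA host genes (SNHG) hold 24, of which 4 of 19 under an exon and 3 of 5 under none passed 10. Other protein-coding genes hold 93, with 3 of 37 under an exon and 23 of 56 under none past 10. Other lncRNA genes hold 15, and there 1 of 4 under an exon and 1 of 11 under none passed.

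The count of the snoRNA gene was only loosely tied to that of its host over all hosted genes, and more closely over those under no exon. Over the 145 hosted genes whose host has a row, log10(mean count + 1) of gene and host had a Spearman correlation of 0.11 and a Pearson correlation of 0.21. Over the 73 of these under no exon the values were 0.54 and 0.52. These correlations run across genes, which share both libraries and in part their hosts, and they are given as a description without a test. The highest host with an uncounted gene under no exon was USP34, in which SNORA70B had 0 in both libraries.

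**Figure D3:**
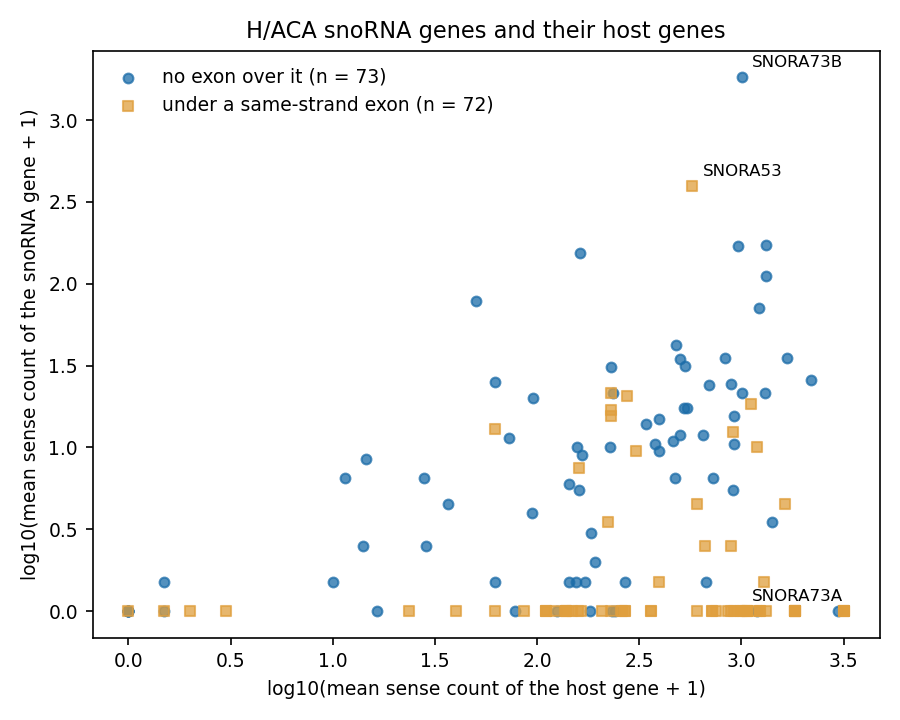
Mean sense count of the snoRNA gene against that of its host gene, both as log10(mean count + 1), for the 145 hosted H/ACA snoRNA genes whose host has a row in the files. Blue circles (n = 73) lie under no exon and orange squares (n = 72) under a same-strand exon. Many squares lie at 0 although their hosts had high counts, SNORA73A among them, while SNORA53 is the highest square.

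Per length, counts of the snoRNA gene and of its host could be set side by side. For the 65 genes under no exon whose host had a mean count of at least 10, the median ratio of snoRNA counts per kb to host counts per kb of exon was 0.994. The ratio was above 1 for 32 of them and under 0.1 for 9. The highest ratio was 47.5 for SNORA30, and SNORA47 in ZBED3 had 26.1, but these rest on only 5.5 and 7.5 mean counts in hosts with 10.5 and 13.5. It was 36.5 for SNORA73B, 25.8 for SNORA12, 12.7 for SNORA74B, 12.5 for SNORA74D in SNHG4 and 6.93 for SNORA23. SNORA53, which is overlapped in part, stood at 24.5. SNORA30, SNORA73B and SNORA74D each lie in another gene as well (SRCAP, RCC1 and MATR3). The shortest protein-coding or SNHG gene was taken as the host there, and the counts of the longer gene are not in these ratios. Pairs on exons shared by the host and the longer gene would be in neither count, and such sharing was not examined. The same limit holds where SNHG3 had fewer counts than SNORA73B. High ratios were thus found for abundant and for barely counted genes. A median ratio near 1 does not show equal levels. A pair that only touches the short snoRNA gene counts for it, and the host length joins the exons of all its transcripts.

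Each of the 6 highest genes lay within 200 bases of the downstream exon, from 67 bases for SNORA73B to 196 for SNORA5C. Among the 76 hosted genes under no exon with an exon on both sides, the median distance to the downstream exon was 1704 bases (range 67 to 157706). Of the 17 within 200 bases, 10 reached a mean count of 10 and the median was 14.5. Of the 59 farther away, 21 reached 10 and the median was 5.5. The limit of 200 bases was chosen after these values were seen, and the 2 classes were not tested against each other. The hosts of genes past 10 also had more counts, with a median of 535, against 154.5 for the hosts of genes under 10. SNORA74B, with 13470 bases to the next exon, had 69 and 87 counts. For the 63 hosted genes under a same-strand exon with an exon on both sides, the median distance was 271 bases (range 48 to 54117). Of all 73 hosted genes under such an exon, 55 had no count. SNORA63 in EIF4A2, for example, lies 63 bases before the next exon and had 0 in both libraries. A short distance was thus not particular to genes with counts.

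H/ACA snoRNA genes were set beside the most similar classes of genes, and none of the differences was tested. A mean count of 10 or more was found for 40 of 210 H/ACA genes (19.0%), 34 of 184 C/D snoRNA genes outside the imprinted clusters (18.5%) and 6 of 49 genes of the related small Cajal body RNAs, or scaRNAs (12.2%). Inside a host and under no exon these shares were 40.3% for H/ACA, 40.6% for C/D and 27.8% for scaRNA genes, with median mean counts of 6.5, 6.75 and 3. Under an exon they were 11.0%, 3.53% and 11.1%. Outside a host, 1 of 60 H/ACA genes (1.67%) reached 10, against 5 of 35 C/D genes (14.3%) and 0 of 22 scaRNA genes. The highest mean count was 1821.5 for H/ACA genes (SNORA73B), 2546.5 for C/D and 1198.5 for scaRNA genes. Other short genes in introns (881 snRNA and misc_RNA genes of 80 to 260 bases, a class chosen after the data were seen) had a median of 0.5, and 8.85% of them reached 10. The highest of them had 152 mean counts.

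The 2 libraries differed at several H/ACA snoRNA genes by more than counting error. The test compares these 2 libraries, not conditions. Of 56 genes with at least 10 counts over both libraries, 6 passed the exact binomial test with Benjamini-Hochberg adjustment over 17310 genes. Higher in replicate 2 were 4 of the 56, against 1.95% of all genes tested, and higher in replicate 1 were 2, against 3.96%. In CPM, SNORA73B was 1.48 times (95% interval 1.39 to 1.58) as high in replicate 2 as in replicate 1 (adjusted p = 6.1e-29, exact binomial test). The ratio was 1.79 (1.54 to 2.07) for SNORA53, 1.42 (1.14 to 1.78) for SNORA23 and 2.25 (1.46 to 3.52) for SNORA22. Both counted genes of TBRG4 went the other way, with ratios of 0.673 (0.535 to 0.843) for SNORA5C and 0.594 (0.443 to 0.792) for SNORA5A. The adjusted p of these 5 lay between 4.4e-13 and 0.027. The same ratio of replicate 2 to replicate 1 was 0.915 for SNHG3 (adjusted p = 0.30, exact binomial test), 0.988 for SLC25A3, 1.08 for IPO7 and 0.942 for TBRG4. None of these 4 hosts passed the test, and the difference between gene and host was not tested.

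Almost all counts of H/ACA snoRNA genes lay on their own strand, but this held only for those inside a host. Of the sense and antisense counts together, 96.0% were sense in each replicate, where all genes reached 88.5% and 88.7%. Inside a host the sense sums were 3618 and 3952 and the antisense sums 26 and 17 in replicates 1 and 2. Outside a host the sense sums were 17 and 12 and the antisense sums 126 and 147. Antisense means of at least 10 were found for 5 of the 210 genes, against 12.2% of all genes, and all 5 lay outside a host.

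These antisense counts came mostly from genes lying in an intron of a gene of the other strand. SNORA62 in PSD3 had 0 sense and 23 and 33 antisense counts, and PSD3 had a mean of 2432 on its own strand. A SNORA72 gene in ECT2, a regulator of cell division, had 14 and 27 antisense counts, a SNORA75 gene in the helicase gene DDX11 had 18 and 12, and a SNORA70 gene in CIP2A had 14 and 11. A SNORA74 gene in PPHLN1 had 8 and 16, and SNORA70G in the small GTPase gene RAP1B had 12 and 6. None of these 6 had a sense count, and together they held 61.4% of the antisense counts of all H/ACA snoRNA genes. The surrounding genes had mean sense counts between 283.5 and 2432. In all, 43 of the 210 genes overlapped a gene of the opposite strand. Whether the antisense counts are RNA of the surrounding genes was not tested.

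**Figure D4:**
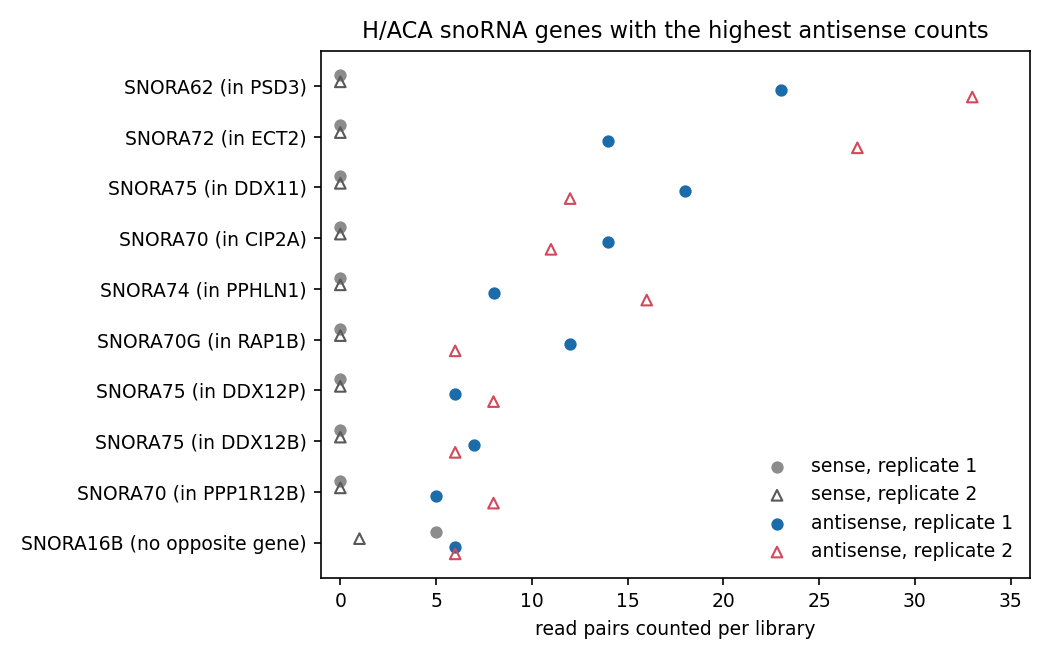
Read pairs counted per library for the 10 H/ACA snoRNA genes with the highest mean antisense count, on the sense strand (grey) and the antisense strand (blue and red), with circles for replicate 1 and triangles for replicate 2. Brackets name the gene of the opposite strand around each. SNORA16B is the one gene of the 10 with sense counts (5 and 1) and without a surrounding gene of the opposite strand (it lies in PPP2R5A on its own strand), and the other 9 have 0 sense counts in both libraries.

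The box motifs were common in the annotated sequences. The rule by symbol did not read the sequence, but the symbol names the class that these boxes define. Their high share is therefore a description of the annotation and no independent support for it. ACA stood exactly 3 bases before the 3′ end in 140 of the 210 genes (66.7%), in 26 of 49 scaRNA genes (53.1%), in 5 of 184 C/D snoRNA genes (2.72%) and in 5 of 210 windows of the same length just downstream (2.38%). The pattern ANANNA, searched on the strand of the gene in the middle of 3 equal parts, was found in 191 of the H/ACA genes (91.0%), and in 103 of the windows (49.0%). Both were present in 132 H/ACA genes (62.9%) and in 3 windows (1.43%). The share with ACA was 69.3% inside a host and 60% outside. It was 62.5% among the 40 genes past a mean count of 10 and 63.2% among the 125 without a count. ACA anywhere in the last 10 bases was found in 85% of these 40 and 76.8% of these 125, and ANANNA in 95% and 88.8%. None of these differences was tested. Annotated ends can be off by some bases, and a missing motif says only that these letters are not at this place.

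**Figure D5:**
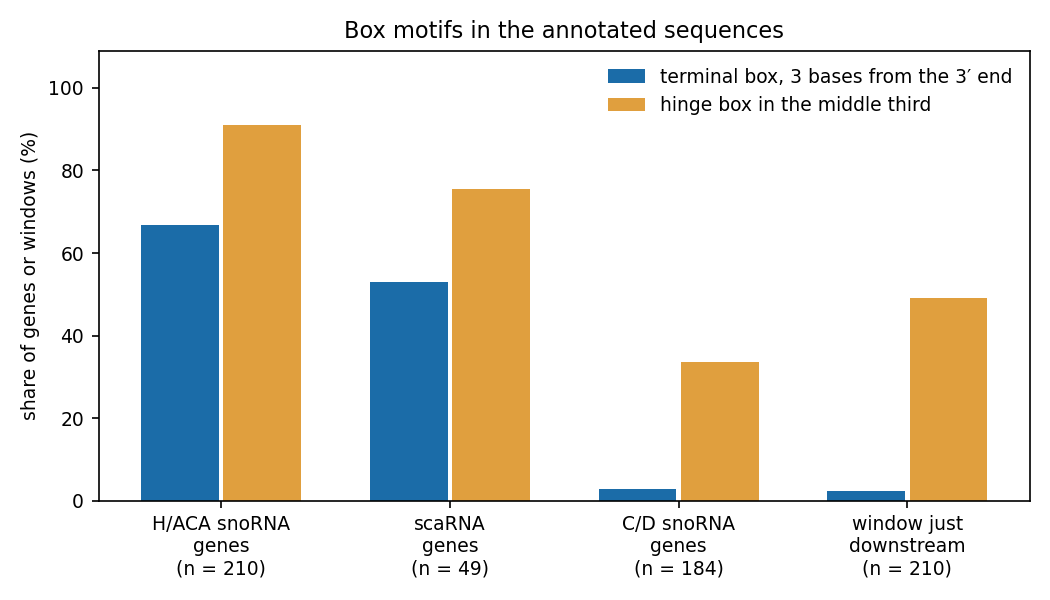
Share of sequences (%) with the terminal box exactly 3 bases before the 3′ end (blue) and with a hinge box in the middle of 3 equal parts (orange), for H/ACA snoRNA genes, scaRNA genes, C/D snoRNA genes and windows of the same length just downstream of each H/ACA gene. Bars start at 0. The terminal box was found in 66.7% of H/ACA genes and 2.38% of the windows.

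Repeated sequence touched few of the counted genes. Read pairs that map to several places are in no count. Over windows of 75 bases, 187 of the 210 genes were unique in the genome at every position, 14 in part and 8 nowhere, and 1 was shorter than the window. Mapped reads can be shorter than these windows, since reads were trimmed first. Of the 40 genes past 10 mean counts, 37 were unique throughout. The exceptions were SNORA22, SNORA40B and SNORA59A, and their counts (34 and 63, 16 and 10, 22 and 19) are less certain. SNORA59A was unique nowhere and has an exact copy elsewhere in hg38. A pair lying whole inside it would match both places and be in no count. Its counted pairs thus reach beyond the annotated gene, unless the cells differ from hg38 there. All 14 genes in a host under no exon that had no count were unique throughout. The largest family by number, SNORA70 with its lettered forms, had 36 genes, of which 12 lay in a host and none reached a mean count of 10. The SNORA71 family had 4 of 8 genes past 10 and the SNORA80 family 3 of 5.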

How the data were processed

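Chromatin-bound RNA of 2 replicates of 1 condition was analysed. The authors extracted molecular identifiers, trimmed reads, removed spike-in and rRNA reads with Bowtie 1, mapped with STAR to hg38, removed PCR duplicates, mapped again and deposited raw counts of read pairs per gene, without normalization, for both strands. No source used here gives the versions of UMI-tools and STAR, the STAR options or the annotation. Names, positions and exons came from GENCODE 44, in which 56558 of 60554 gene identifiers were found. The sense column was the one with the higher total in both libraries (antisense totals 540916 and 436277).

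Levels are means of both counts or CPM. A count of 0 in 1 library allows 0.722 CPM in replicate 1 and 0.876 CPM in replicate 2 (3 counts). This bounds the pairs assigned to a gene, not its RNA. Exons of other genes or copies can keep pairs from being assigned. No source used here says whether RNA or library fragments were selected by size, so a loss of short RNA before sequencing cannot be judged. Intervals cover counting error only. The libraries were compared by a two-sided exact binomial test per gene with at least 10 counts over both, adjusted by Benjamini-Hochberg, which was checked on simulated counts. With 1 condition no other test was made. Median ratio and TMM factors (edgeR 4.0.16) were alternatives, as were other columns, thresholds and host rules. Uniqueness was searched with blastn 2.17.0, and other steps used Python 3.11.15 with scipy 1.17.1.

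Genes and lists were chosen with earlier results of these data known. The named genes are the 12 with the highest sense and 6 with the highest antisense means, those outside a host with a mean of at least 10, those in hosts with 3 or more, those that differed between libraries, the SNORA73 pair and fixed lists. Genes named beyond these, and the split by exons, were chosen after their values were seen. RN7SK, on one of the lists, was not used here.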

Additional observations from a re-analysis of the deposited data

How the results depend on the processing

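No paired analysis was possible because the design has a single group. The 40 genes with a mean sense count of at least 10 became 73 at a mean of 1, 6 at 100 and 5 on the antisense strand. Inside a host, 39 became 70, 6 and 0, and outside a host, 1 became 3, 0 and 5. Outside a host there were 6 with unstranded counts and 8 when only protein-coding genes counted as hosts. Each replicate alone gave 41 and 42. Under no exon, 31 became 54, 5 and 0, and under an exon, 8 became 16, 1 and 0. With exons of the GENCODE basic set, 18 genes in place of 65 lay under a host exon, and 4 of these 18 reached 10, as did 35 of the 132 under none, so that the split by exons nearly disappeared. The median mean count inside a host, 0.5, was 6.5 without genes under an exon, 1 with protein-coding hosts, 0 on the antisense strand and 0 to 0.5 with 1 replicate left out. The sense share of 96.0% was 92.6% without SNORA73B, 99.5% without genes in a gene of the opposite strand, 99.4% inside a host, 9.72% outside, and 100% as the median over genes with at least 10 counts. The Spearman correlation with the host, 0.11, was 0.080 per kb, 0.29 with 1 value per host, 0.54 under no exon, -0.40 over the 18 genes in ribosomal protein hosts, and 0.11 to 0.13 with 1 replicate left out. The causes were not tested. The 6 genes that differed between the libraries were also 6 with median ratio factors, with TMM factors, without the minimum of 10 and with unstranded counts. The motif count of 140 was 172 for ACA within the last 10 bases. The split by exons and the sense shares inside and outside a host were added after the data were seen. With 1 count worth 0.241 CPM in replicate 1 and 0.292 CPM in replicate 2, differences of a few counts were not detectable at this depth.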

Other observations

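Some other short nuclear RNAs had no sense counts. TERC, the telomerase RNA, whose 3′ part is an H/ACA domain, had 0 counts in both libraries, and a second annotated gene, Telomerase-vert, lies over it on the same strand. RMRP, the RNA of a ribonuclease that acts on ribosomal RNA precursors, had 0 in both. So did RPPH1, the RNA of ribonuclease P, which lies under a same-strand exon of the lncRNA gene ENSG00000259001. These zeros bound the pairs assigned to these genes and do not show that the RNAs were absent. Among H/ACA snoRNA genes under no exon that reached a mean count of 10 outside the 12 highest, SNORA80A in URB1 had 25 and 25 counts, SNORA74D in SNHG4 had 27 and 21, SNORA79 in GTF2A1 had 20 and 21, and SNORA58 in MRPL3 had 20 and 13. Over 51 H/ACA snoRNA genes, fewer than the 56 of the binomial test, the chi-square between the libraries was 6.37 per degree of freedom. Over 16662 genes of all kinds, fewer than the 17310 of that test, it was 2.74. This describes the spread beyond counting error and is no trait of the whole class, since SNORA73B and SNORA53 weigh heavily in it. Their adjusted p was 6.1e-29 and 4.4e-13 (exact binomial test), and the next lowest was 0.0051 for SNORA22. No value without these genes is given here.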
